A study of Mus musculus with 15 samples.

Results

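The chromatin of induced macrophages (iMΦ) was described from 3 chromatin immunoprecipitation sequencing (ChIP-seq) libraries, 1 each for H3K4Me1, H3K27Ac and H3K27Me3, which are the 3 libraries labelled 48 hours of the 15 in the series. The cells were C10, a mouse line derived from the HAFTL pre-B cell line, which carries the transcription factor C/EBPα in an estradiol-inducible form. All 3 libraries came from cells given 100 nM β-estradiol and cultured with the cytokines IL-3 and CSF-1 at 10 nM, and were taken 48 h post-induction (hpi). The series asks how histone marks are arranged while a B lineage cell turns into a macrophage, and here the marks are set against each other at 48 hpi only. C10 is a single cell line, each mark had 1 library, and no input library was used here, so there is no replicate check, no test between samples was run and the intervals given cover counting error only. The antibodies differ between marks, and a level in 1 mark cannot be read against the same level in another.

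Histones carry small chemical marks on their tails that differ between parts of the genome. H3K4Me1, a single methyl group on lysine 4 of histone H3, is laid down around enhancers, whether or not they are in use. H3K27Ac, an acetyl group on lysine 27, marks enhancers and promoters in use, and H3K27Me3, a trimethyl group on the same lysine, is placed by the Polycomb repressive complex at genes kept silent. Because acetyl and trimethyl groups use the same lysine, a given histone tail can carry only 1 of them. A ChIP-seq library reads a whole population, so a window with both marks can hold them on neighbouring nucleosomes, on the 2 copies of a chromosome or in different cells, and these cannot be told apart here.

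After keeping 1 tag per position on chromosomes 1 to 19 and X, the H3K4Me1 library kept 10913733 tags, that of H3K27Ac 16404400 and that of H3K27Me3 15338280. Tags were counted in windows of 3000 bp, of which 819482 held a tag in at least 1 library, and the mean window held 13.3, 20 and 18.7 tags, respectively. A level is the number of tags in 3000 bp divided by that genome mean, so that 1 is the genome mean. A window or gene start was called enriched in a mark at 2-fold or more, with a Poisson upper tail below 0.001, so that H3K4Me1 needed 27 tags, H3K27Ac 41 and H3K27Me3 38.

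The starts of 4 macrophage marker genes all carried H3K27Ac and H3K4Me1, and none of these starts was enriched in H3K27Me3. These calls alone do not identify the cells, as 32 of 38 starts of B cell genes were also enriched in H3K27Ac. Of all protein-coding starts, 46.6% were enriched in H3K27Ac, 40.6% in H3K4Me1 and 15.6% in H3K27Me3, so a lack of H3K27Me3 was the usual state. Cd14, the co-receptor for bacterial lipopolysaccharide, held 1372 H3K27Ac tags in the 3 kb at its start, a level of 68.5 (95% exact Poisson interval 65 to 72.3), with 75 H3K4Me1 tags (level 5.63) and 13 H3K27Me3 tags (level 0.695). Il1b, which encodes the inflammatory cytokine IL-1β, held 953 H3K27Ac tags (level 47.6, 44.6 to 50.7), 165 H3K4Me1 tags (level 12.4) and 13 H3K27Me3 tags (level 0.695). Mmp12, the macrophage elastase, held 402 H3K27Ac tags (level 20.1, 18.2 to 22.1), 200 H3K4Me1 tags (level 15.0) and 9 H3K27Me3 tags (level 0.481). At Csf1r, which encodes the receptor for CSF-1, the counts were 268 H3K27Ac tags (level 13.4, 11.8 to 15.1), 164 H3K4Me1 tags (level 12.3) and 21 H3K27Me3 tags (level 1.12). The order in H3K27Ac, from Cd14 down to Csf1r, was not that in H3K4Me1, where Cd14 was lowest of the 4 and Mmp12 highest. Among all 22350 protein-coding starts Cd14 ranked 8 and Il1b 96 in H3K27Ac, whereas Mmp12 ranked 2549 and Csf1r 4906. Counting the gene and 20 kb on each side, H3K27Me3 was enriched in 6 of 17 windows at Il1b and 9 of 23 at Csf1r. At Cd14 and Mmp12 it was enriched in 0 windows, and its share of all windows was 12.8%.

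The starts of genes with these marks differed in their sequence, and 4 promoters show the range, each from 250 bp before to 50 bp after the annotated start, read 5′ to 3′ on the strand of the gene from build mm9. Il1b (chr2:129196826-129197125, minus strand) and Mmp12 (chr9:7344131-7344430, plus strand) are the macrophage markers above, and capitals mark a TATA box (TATAAA) in the former and matches to the cores bound by PU.1 (GAGGAAGT) and C/EBP (TTGCNNAA), on either strand, in the latter. Cd47 (chr16:49855481-49855780, plus strand) had among the most H3K27Ac of all starts, and Ngfr (chr11:95449000-95449299, minus strand) led the starts that were high in H3K27Me3 and not in H3K27Ac. In these last 2, which were chosen after their values were seen, capitals mark each CG. The Cd47 promoter holds 37 of them and that of Ngfr 19, against 3 in Il1b and 0 in Mmp12, where the median over all promoters is 11.
Il1b: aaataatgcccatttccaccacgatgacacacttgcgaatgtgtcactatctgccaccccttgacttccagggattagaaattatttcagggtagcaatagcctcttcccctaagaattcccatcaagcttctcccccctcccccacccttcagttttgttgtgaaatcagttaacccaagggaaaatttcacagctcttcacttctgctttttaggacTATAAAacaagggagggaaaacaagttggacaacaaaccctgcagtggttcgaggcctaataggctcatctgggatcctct
Mmp12: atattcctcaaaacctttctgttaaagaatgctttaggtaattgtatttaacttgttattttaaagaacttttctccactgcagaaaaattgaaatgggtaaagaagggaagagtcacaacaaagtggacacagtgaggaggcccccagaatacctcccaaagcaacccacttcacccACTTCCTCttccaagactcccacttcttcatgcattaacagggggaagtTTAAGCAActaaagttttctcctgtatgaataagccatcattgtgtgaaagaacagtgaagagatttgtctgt
Cd47: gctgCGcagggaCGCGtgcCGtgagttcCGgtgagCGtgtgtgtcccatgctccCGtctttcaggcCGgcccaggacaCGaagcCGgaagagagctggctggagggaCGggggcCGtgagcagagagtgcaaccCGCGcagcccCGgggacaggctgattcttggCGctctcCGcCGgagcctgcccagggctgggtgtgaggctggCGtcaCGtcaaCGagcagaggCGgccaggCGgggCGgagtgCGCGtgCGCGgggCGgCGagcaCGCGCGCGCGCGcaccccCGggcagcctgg
Ngfr: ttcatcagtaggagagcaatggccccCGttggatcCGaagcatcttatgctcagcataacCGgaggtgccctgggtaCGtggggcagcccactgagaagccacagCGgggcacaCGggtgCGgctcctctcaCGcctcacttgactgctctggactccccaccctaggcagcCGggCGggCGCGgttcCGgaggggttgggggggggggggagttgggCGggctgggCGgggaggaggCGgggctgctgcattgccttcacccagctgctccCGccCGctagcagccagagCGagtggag

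Over all 22345 promoters of full length, the letters of the C/EBP core stood in 10.3% and those of the PU.1 core in 3.12%. Among the 100 starts highest in H3K4Me1, the C/EBP core stood in 18 (11 to 26.9%) and the PU.1 core in 11 (5.62 to 18.8%), and the same 100 had a median of 4 CG. Among the 100 highest in H3K27Ac, the C/EBP core stood in 14 (95% exact binomial interval 7.87 to 22.4%) and the PU.1 core in 4 (1.1 to 9.93%), with a median of 19 CG. The C/EBP core also stood in 14 of the 100 highest in H3K27Me3, and over all promoters it was rarer where H3K27Ac was enriched (8.4%) than where it was not (12%). A match is only a run of letters, and binding of these factors was not analysed here.

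H3K4Me1 was enriched in 101398 windows (12.4%), H3K27Ac in 70529 (8.61%) and H3K27Me3 in 105130 (12.8%). The windows with H3K4Me1 and H3K27Ac gathered most of the tags of their libraries, 73.7% and 71.4%, and their median levels were 4.51 and 4.9. H3K27Me3 was shallower, with 37.3% of its tags in enriched windows, a median level of 2.72 there and 99% of all windows under a level of 4.17. The number of enriched windows in H3K27Me3 therefore rests on windows close to the limit, and at a minimum of 4-fold it fell to 1.32% of windows, whereas H3K4Me1 kept 6.99% and H3K27Ac 5.05%.

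H3K4Me1 and H3K27Ac overlapped more than any other pair. Of the windows with H3K27Ac, 88.8% (88.6 to 89.1%) also had H3K4Me1, and of the windows with H3K4Me1, 61.8% also had H3K27Ac. The 62647 shared windows were 7.18 times the product of the single shares. These 2 libraries also shared 607068 tag positions, 5.56% of those of H3K4Me1 and 3.7% of those of H3K27Ac, more than any other pair, and the part of this in the overlap was not tested. Enriched windows of H3K27Ac and H3K27Me3 overlapped less: 4443 windows had both, which is 6.3% (6.12 to 6.48%) of those with H3K27Ac and 0.491 times the product. Of these, 4030 also had H3K4Me1, which is 3.6 times the product of all 3 single shares. That product takes no account of the overlap of H3K4Me1 and H3K27Ac, so 3.6 does not show an excess of H3K27Me3 where those 2 meet. H3K27Me3 stood in these 4030 of the 62647 windows with H3K4Me1 and H3K27Ac, and in 12.8% of all windows. The other 413 of the 4443 windows carried the 2 marks of lysine 27 without H3K4Me1. That small part is not particular to them, as 88.8% of all windows with H3K27Ac had H3K4Me1. H3K4Me1 and H3K27Me3 shared 14509 windows, at 1.12 times the product, and this ratio lay between 0.974 and 1.19 over the other ways of counting that were tried, whereas that of H3K4Me1 and H3K27Ac stayed between 6.71 and 12.3 and that of H3K27Ac and H3K27Me3 between 0.256 and 0.623. Over all windows, most of which hold few tags, Spearman's rho was nevertheless positive for each pair, as a description only: 0.71 for H3K4Me1 with H3K27Ac, 0.23 for H3K4Me1 with H3K27Me3 and 0.16 for H3K27Ac with H3K27Me3. By place, the ratio of H3K4Me1 and H3K27Me3 was 0.741 within 2500 bp of a start and 1.2 farther away. All of these ratios describe the overlap within the same windows and libraries. Most of the genome, 619994 windows or 75.7%, was enriched in no mark.

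**Figure D1:**
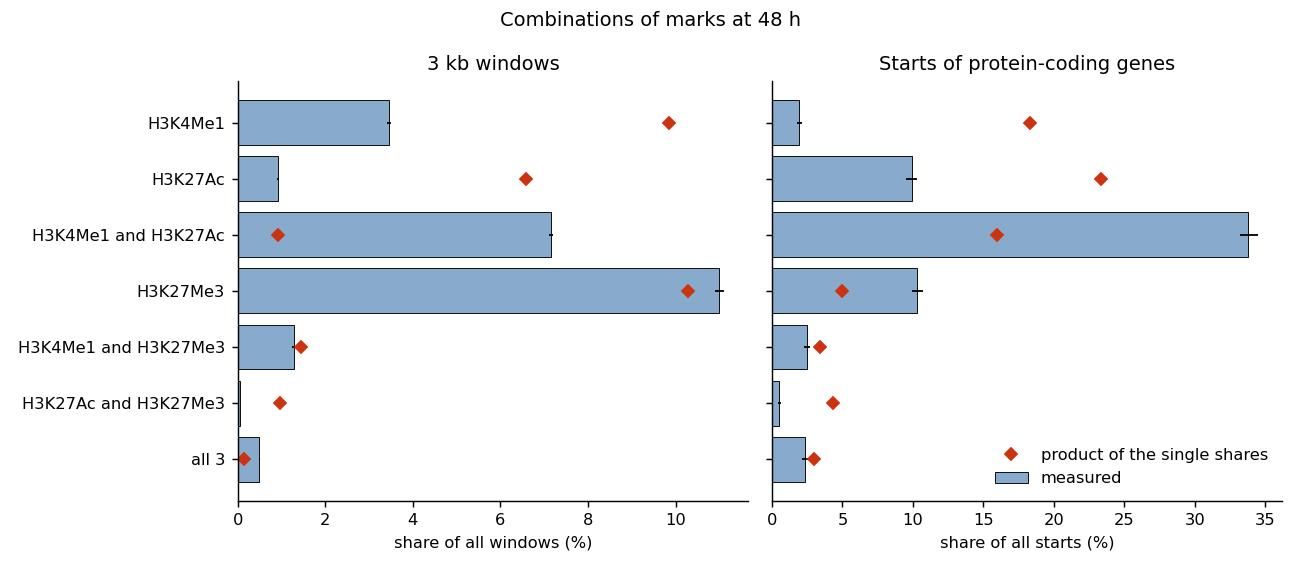
Share of all 3 kb windows (left) and of all protein-coding gene starts (right) in each combination of enriched marks, in percent, with exact binomial 95% intervals as error bars; red diamonds give the share that the product of the single shares would give. H3K4Me1 and H3K27Ac without H3K27Me3 made 7.15% of windows and 33.8% of starts, far to the right of their diamonds. H3K27Ac and H3K27Me3 without H3K4Me1 made 0.0504% and 0.501%, to the left of theirs. All 3 marks together made 0.492% of windows, to the right of their diamond, and 2.31% of starts, to the left. The diamonds take no account of the overlap of H3K4Me1 and H3K27Ac.

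The combinations also differed in where they lay. Windows with H3K27Ac and no other mark were within 2500 bp of an annotated start in 46.4% of cases, those with H3K4Me1 and H3K27Ac in 28.3%, those with H3K4Me1 alone in 13.2% and those with H3K27Me3 alone in 10.3%, against 9.36% of all windows. Windows with H3K4Me1 alone lay inside genes, away from starts, in 53.7% of cases, against 35.4% of all windows. Those with H3K27Me3 alone lay between genes in 55.6%, close to the 55.2% of all windows.

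Away from starts, almost every window rich in H3K27Ac was also rich in H3K4Me1. Of 5102 such windows at 16-fold H3K27Ac or more, 97.9% were enriched in H3K4Me1, with a median H3K4Me1 level of 12.6, and the median level rose with that of H3K27Ac through 4.28 (2 to 4-fold), 7.28 (4 to 8-fold) and 9.99 (8 to 16-fold). Near starts the 4232 windows of 16-fold H3K27Ac or more had H3K4Me1 in 79.9%, at a median level of 4.28, below the 4.81 of windows at 4 to 8-fold. H3K27Me3 went the other way in both places. Its share was highest where H3K27Ac was between 0.5 and 1, at 25.2% near starts and 22.4% away from them, and was 0.662% and 1.8% in the windows with the most H3K27Ac.

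**Figure D2:**
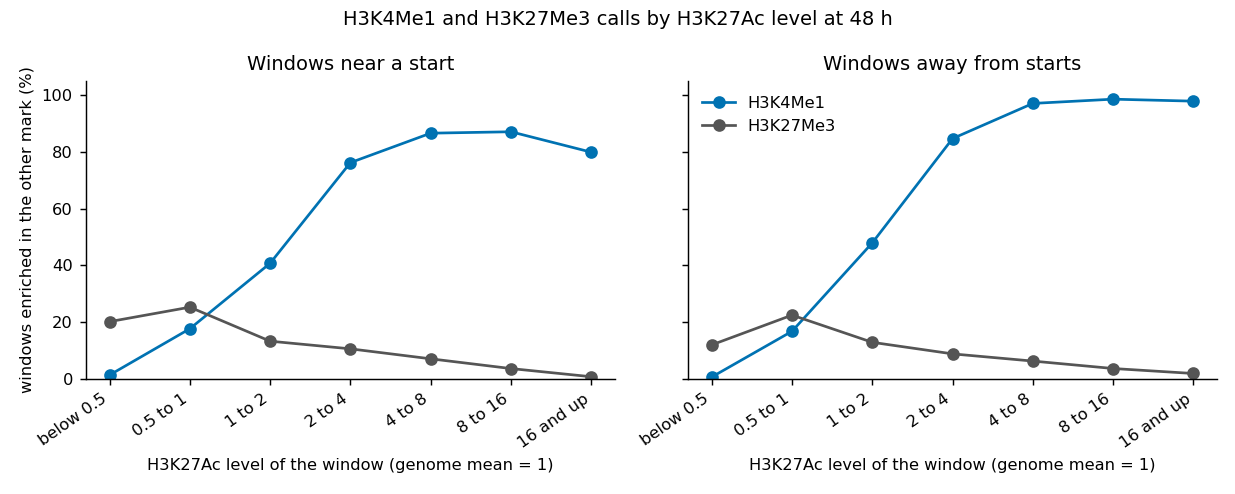
Share of windows enriched in H3K4Me1 (blue) or H3K27Me3 (grey), in percent, by the H3K27Ac level of the window (genome mean = 1), for windows within 2500 bp of a start (left) and farther away (right). H3K4Me1 climbs to 97.9% away from starts but ends at 79.9% near them, and H3K27Me3 falls to 1.8% and 0.662%.

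The highest of the 5 windows away from starts with the most H3K27Ac, chr5:30273001-30276000 (mm9), stood between annotated genes 65201 bp upstream of the start of Il6, an inflammatory cytokine, and held 1769 H3K27Ac tags (95% exact Poisson interval 1688 to 1853), 274 H3K4Me1 tags and 9 H3K27Me3 tags. A window 27762 bp upstream of Lyn, a Src family kinase of B cells and myeloid cells, held 1631 H3K27Ac, 150 H3K4Me1 and 5 H3K27Me3 tags. A window 10557 bp upstream of Ctsd, a lysosomal protease, held 1618, 391 and 8 tags in the same order, and a window 7143 bp upstream of Mcl1, an inhibitor of cell death, held 1614, 287 and 4. The remaining window, with 1722 H3K27Ac tags, lay in an intron of the annotated gene Gm15518, nearest to the start of Ift57. All 5 had H3K4Me1 levels between 11.3 and 29.4 and H3K27Me3 levels below 1.

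High H3K4Me1 also stood at windows without an H3K27Ac call. The window chr10:80226001-80229000, in an intron of Dot1l, which encodes the methyltransferase for lysine 79 of histone H3, held 314 H3K4Me1 tags (level 23.6) beside 32 H3K27Ac tags (level 1.6) and 8 H3K27Me3 tags (level 0.427). The next 4 such windows lay in introns of Wnk2, Ipmk and Foxo1 and 41554 bp downstream of the start of Ptgs1, the constitutive cyclooxygenase gene, with H3K4Me1 levels from 17.2 to 18. Their H3K27Ac levels, from 1.6 to 1.95, were just under the limit of 41 tags but above the 0.2 of the median window. The upper ends of their exact Poisson intervals, from 45.2 to 53.3 tags, passed that limit. A lack of H3K27Ac is therefore not shown at these windows. The one in Wnk2, a kinase gene, held 35 H3K27Me3 tags (level 1.87), and in the other 3 that level was between 0.427 and 0.908.

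Runs of adjoining enriched windows were mostly short, with a median of 2 windows in each mark and 44.5 to 49.1% of runs a single window, but some were long. The longest run was in the same region for H3K27Ac (363 kb) and H3K4Me1 (354 kb). It lay over Foxp1, a forkhead transcription factor gene used in B cells and monocytes. Mean levels over the H3K27Ac run were 16 in H3K27Ac, 12.3 in H3K4Me1 and 0.453 in H3K27Me3. The next run of H3K27Ac was 132 kb over Cebpb, which encodes the transcription factor C/EBPβ of macrophages, and Tmem189 (mean H3K27Ac level 19.7, H3K4Me1 14.6, H3K27Me3 1.39), and an equally long one covered Fnbp1 and Gpr107. For H3K4Me1, the next runs were 183 kb on chromosome 5 (53742001-53925000), with no protein-coding start, and 168 kb overlapping Irf2, an interferon regulatory factor gene. The longest runs of H3K27Me3 were 225 kb over Tbx2 and Tbx4, T-box genes of limb and heart development, 201 kb on chromosome 2 (72498001-72699000) and 183 kb at Pbx3, a homeobox gene. In the run at Tbx2 the mean H3K27Me3 level was 3.54 beside 0.79 for H3K4Me1 and 0.342 for H3K27Ac. H3K27Me3 had the larger part of its windows in runs of 10 or more, 29.4% against 20.6% for H3K4Me1 and 18.8% for H3K27Ac, while its longest run was the shortest of the 3.

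Of the 22350 protein-coding starts, taken as the 3 kb around the annotated 5′ end, 9069 (40.6%) were enriched in H3K4Me1, 10410 (46.6%) in H3K27Ac and 3487 (15.6%) in H3K27Me3. The most frequent marked state was H3K4Me1 with H3K27Ac, at 7565 starts, followed by H3K27Me3 alone at 2306 and H3K27Ac alone at 2216, and 8647 starts carried none. H3K4Me1 alone stood at 435 starts, or 1.95%, against 3.45% of all windows. Of the starts with H3K27Me3, 18% (16.8 to 19.4%) also had H3K27Ac and 30.7% (29.1 to 32.2%) also had H3K4Me1, at 0.387 and 0.756 times the product of the shares. The ratio for H3K4Me1 and H3K27Me3 lay between 0.705 and 0.927 over the other ways of counting, except with 1000 bp at the start. That setting gave 1.5, so the direction depended on the size of the region counted. Across all starts Spearman's rho, as a description only, was 0.80 for H3K4Me1 with H3K27Ac, 0.05 for H3K4Me1 with H3K27Me3 and -0.14 for H3K27Ac with H3K27Me3. All starts share the same libraries and the same differences in base composition.

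At starts with H3K27Ac the 3 kb level of H3K4Me1 hides its shape, because there this mark was low at the start itself and higher on both sides. The dip was shallower at the 435 starts with H3K4Me1 alone, from 4.11 on each side to 2.79. At the 7565 starts with H3K4Me1 and H3K27Ac, the mean H3K4Me1 level was 1.25 in the first 100 bp of the gene, 6.56 at its upstream maximum 900 to 1000 bp away and 7.03 at its downstream maximum, 1400 to 1500 bp into the gene. H3K27Ac had its maxima much closer, at a level of 20.7 between 300 and 400 bp upstream and 31.1 between 200 and 300 bp downstream, with 16.5 between them. At the 2216 starts with H3K27Ac alone H3K27Ac was alike in height (20.9 and 30.7), and H3K4Me1 stood farther out, with 0.26 at the start and maxima of 3.32 between 2100 and 2200 bp upstream and 4.93 between 2700 and 2800 bp downstream, outside the 3 kb counted. These starts were chosen for an H3K4Me1 count under the limit within that 3 kb, which in part fixes where its maxima can lie. The middle 500 bp held 16% of the H3K4Me1 tags of the 3 kb at starts with H3K27Ac below 0.5, close to an even spread. At starts with H3K27Ac of 16 or more it held 4.25%.

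H3K27Me3 was flat where it stood alone. At those 2306 starts it ranged from 2.86 near the start to 3.12 upstream, and was still 2.6 and 2.56 at 5 kb on either side. At the 517 starts with all 3 marks, H3K27Me3 fell to 1.8 in the 100 bp before the start, with maxima of 4.12 between 1300 and 1400 bp upstream and 3.04 between 600 and 700 bp downstream, while H3K27Ac peaked at 14.2 between 200 and 300 bp into the gene. Within the same 3 kb, the 2 marks of lysine 27 were therefore on average highest at different distances from the start.

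**Figure D3:**
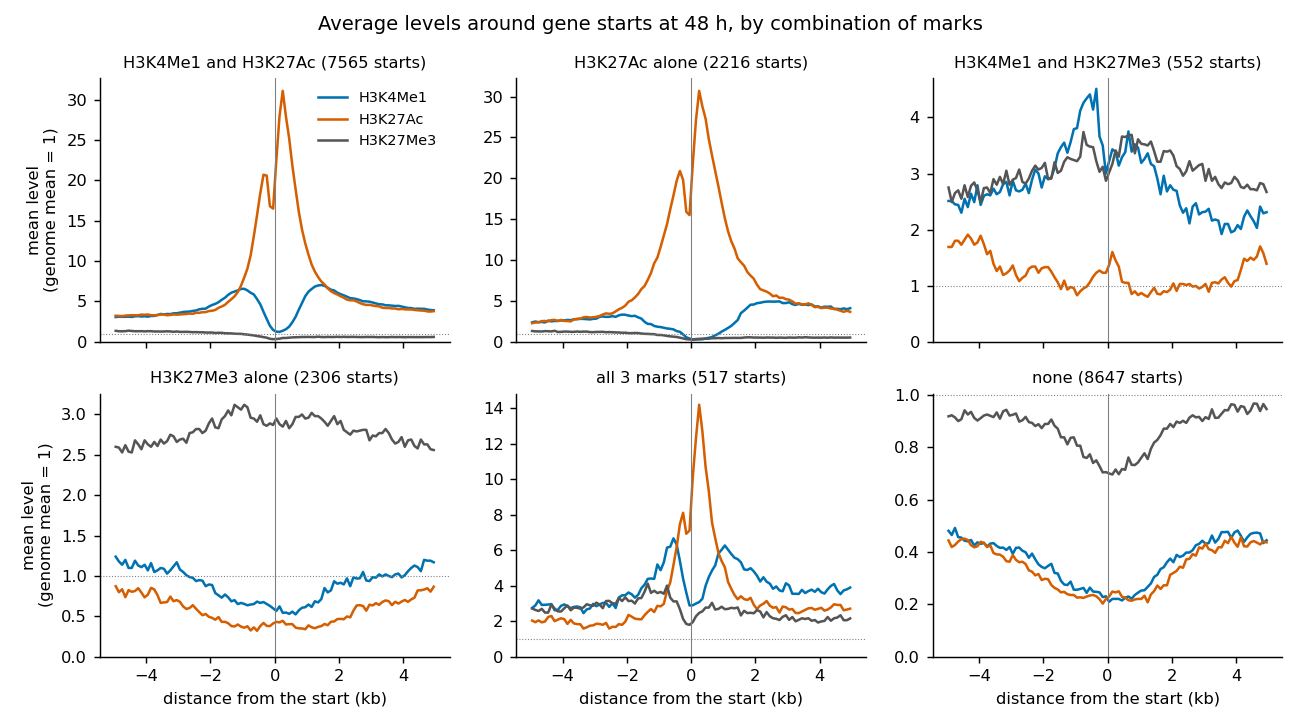
Mean level of each mark (genome mean = 1) in 100 bp bins from 5 kb before to 5 kb after gene starts, in 6 groups by combination of enriched marks; the vertical scale differs between panels. H3K27Ac peaks on both sides of the start, H3K4Me1 dips to 1.25 where both marks are called and to 0.26 where H3K27Ac is alone, and H3K27Me3 alone is nearly flat, with a maximum of 3.12 upstream.

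The marks also went with base composition. With the starts split into 4 equal groups by CG relative to their C and G content, in the group with the fewest CG 10.8% were enriched in H3K27Ac, 14.9% in H3K4Me1 and 17.1% in H3K27Me3. In the group with the most, the shares were 75.2%, 49.7% and 8.63%. H3K27Me3 was most frequent in group 2 from the low end, at 23.3%. The median ratio of observed to expected CG was 0.637 at starts with H3K27Ac alone, 0.51 with H3K4Me1 and H3K27Ac, 0.268 with H3K27Me3 alone and 0.229 with no mark. How base composition bears on the recovery of tags was not tested.

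The start with the most H3K27Ac was that of Soat2, which encodes an enzyme that makes cholesterol esters. It held 1651 H3K27Ac tags (level 82.5, 78.5 to 86.6), 339 H3K4Me1 tags (level 25.5) and 13 H3K27Me3 tags (level 0.695), and ranked 5 in H3K4Me1. Genes of myeloid cells among the first 10 were Ptger2 (75.8), a receptor for prostaglandin E2, Cd33 (72.6), a lectin that binds sialic acid, Nlrp3 (69.2), the sensor of an inflammasome, and Cd14. The others were Ppp1r15b (79.5), a subunit of the phosphatase that acts on the initiation factor eIF2α, Hspa9 (73.4), a mitochondrial chaperone, Slc25a37 (66.5), a mitochondrial iron carrier, and Mll5 (66.5), a chromatin regulator of the MLL family. Cd47 (69.5), also among them, encodes the surface signal that restrains phagocytosis. The first 10 fell into 2 kinds in H3K4Me1: Ppp1r15b, Hspa9, Cd47 and Mll5 were not enriched, at levels from 0.15 to 1.73, and the others lay between 3.75 and 25.5. The H3K27Me3 level was below 1 at all 10.

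At Cd47, H3K27Ac was spread over several kb with a maximum of 79.1 between 500 and 1000 bp before the start. No H3K4Me1 tag fell in the 500 bp before the start, but its level reached 24.3 between 3500 and 4000 bp and 31.1 between 6500 and 7000 bp upstream. Its CG-rich promoter is the one printed above.

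The 10 starts highest in H3K4Me1 shared only Soat2 with the 10 highest in H3K27Ac. C130050O18Rik and Gm17497, both gene models without a name, led with levels of 28.5 and 25.8, followed by Slc2a9 (25.6), a transporter of urate, Dpep2 (25.5), a membrane dipeptidase, Soat2 (25.5), Siglec5 (23.8), a lectin of myeloid cells, Myoz1 (23.0), a protein of the muscle sarcomere, Phyhd1 (21.6) and Orm3 (21.3), which encodes an acute-phase plasma protein. All of these were enriched in H3K27Ac, at levels from 11.9 (Siglec5) to 82.5 (Soat2). In CG content they were alike, with observed to expected ratios from 0.0866 to 0.242, below the median of all starts, 0.405. The tenth start, that of Gm10800, was high in all 3 marks and belongs to the group described next.

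The 4 highest starts in H3K27Me3 were high in every library. Gm10800 had H3K27Me3, H3K27Ac and H3K4Me1 levels of 16.7, 14.5 and 21.2, Gm10801 had 13.8, 10.6 and 15.2, Gm17379 had 11.3, 21.2 and 14.8, and Sfi1, a centrosome gene, had 7.96, 23.7 and 8.79. Away from starts, the 3 windows with the most of both marks of lysine 27 lay at the same places, in introns of Mid1 (near Gm17379) and Sfi1, and the highest held 378 H3K27Me3, 1050 H3K27Ac and 747 H3K4Me1 tags. In all, 116 windows and 14 starts stood at 4-fold or more in all 3 libraries, and leaving them out moved none of the 15 counts by more than 1.5 times. With no input library used here, tags gathered at these sites without regard to the antibody and tags from the marks cannot be told apart.

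Below them, 5 of the other 6 starts among the first 10 in H3K27Me3 were not enriched in H3K27Ac. That was usual, as 18% of all starts with H3K27Me3 had H3K27Ac. Ngfr, which encodes the p75 neurotrophin receptor, held 132 H3K27Me3 tags (level 7.05, 5.9 to 8.36), 16 H3K27Ac tags (level 0.799) and 45 H3K4Me1 tags (level 3.38). Srms, a tyrosine kinase gene, and Copz2, a coatomer subunit gene, had H3K27Me3 levels of 6.79 and 6.57 and H3K27Ac levels of 1.55 and 0.649. BC048502 and BC061194, gene models without a name, had H3K27Me3 levels of 5.98 and 5.93 and H3K27Ac levels of 0.2 and 0.35. Gm10717, with 6.41, again had H3K27Ac (3.5) and H3K4Me1 (5.48) above their limits. At Ngfr the H3K27Me3 level reached 10.3 between 500 and 1000 bp into the gene and was at least 1.28 in every bin of 500 bp over 10 kb on each side.

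Among the starts with both H3K27Ac and H3K27Me3, those after the 4 sites above were Hdhd3 (levels 12.2 and 5.93), Spatc1 (5.7 and 5.4), P2ry2 (10.8 and 5.18), a receptor for extracellular nucleotides, Arg2 (5.84 and 4.86), the mitochondrial arginase, Itih2 (6.19 and 4.7), an inhibitor of serine proteases, and Cenpv (4.7 and 4.76). All 6 were also enriched in H3K4Me1, from 2.93 at Hdhd3 to 5.86 at P2ry2. So were 517 of all 629 starts with H3K27Ac and H3K27Me3. With H3K4Me1 and H3K27Me3, the leading starts outside those sites were Mmp28 (6.38 and 5.77), a matrix metalloproteinase, Gm10717 (5.48 and 6.41), A930002I21Rik (5.56 and 5.45), Spatc1, Igf1 (5.26 and 5.24), a growth factor made by macrophages among other cells, and Igfbp6 (10.6 and 5.24), which binds such factors. Igf1 and A930002I21Rik were not enriched in H3K27Ac (0.699 and 1.45).

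Of 42 further macrophage genes, 33 were enriched in H3K27Ac and 33 in H3K4Me1, which is 78.6% in each against 46.6% and 40.6% of all starts, and 11 (26.2%) in H3K27Me3 against 15.6%. Their median levels were 7.57, 6.01 and 0.988 where those of all starts were 1.15, 1.2 and 0.695. The highest in H3K27Ac after Nlrp3 were Sfpi1 (63.6, 60.1 to 67.2), which encodes the macrophage and B cell factor PU.1, and Tlr4 (62.1, 58.7 to 65.7), the receptor for lipopolysaccharide. In H3K4Me1 the highest were Mmp9 (19.9), a gelatinase, Apoe (14.0), a lipid carrier, and Sfpi1 (13.2). At the low end in H3K27Ac stood Lpl (0.15), lipoprotein lipase, and Marco (0.25), a scavenger receptor, with 3 and 5 tags and with no mark enriched.

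A part of the macrophage list carried H3K4Me1, H3K27Ac and H3K27Me3 in the same 3 kb. The H3K27Me3 levels were mostly under 4, which only Gpnmb and Fpr1 of the list passed. All 3 marks were enriched at 517 of all 22350 starts (2.31%) and at 9 of the 42 starts of the list: Fcgr1, Cxcl2, Clec7a, Ccl4, Fpr2, Itgam, Gpnmb, Lgals3 and Fpr1. They encode an Fc receptor, chemokines, a receptor for fungal glucan, receptors for formyl peptides, the integrin chain CD11b, a glycoprotein of lysosomes and a galectin. Gpnmb was the highest of the list in H3K27Me3, with 96 H3K27Me3 tags (level 5.13, 4.15 to 6.26), 90 H3K27Ac tags (level 4.5) and 93 H3K4Me1 tags (level 6.98). Fpr1 followed with H3K27Me3 at 4.65, H3K27Ac at 2.05 and H3K4Me1 at 4.58, and Mertk, a receptor for dying cells, had H3K27Me3 at 3.79 with neither of the other marks (11 H3K27Ac and 14 H3K4Me1 tags). Itgam had levels of 5.0 in H3K27Ac, 10.1 in H3K4Me1 and 2.03 in H3K27Me3, the last right at the limit of 38 tags. Emr1, which encodes the surface antigen F4/80, lacked an H3K27Ac call at 37 tags, 4 below the limit, beside 133 H3K4Me1 tags (level 9.99) and 63 H3K27Me3 tags (level 3.37). H3K27Ac at the 9 starts with all 3 marks lay between 2.05 and 10.5, a range that also held starts of the list without H3K27Me3, such as Apoe (8.84). Itgam, Lgals3 and Emr1 were chosen for description after their values were seen.

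At Gpnmb the marks overlapped but did not share their maxima. H3K27Me3 reached 8.33 between 1000 and 1500 bp into the gene and was 3.21 in the 500 bp on each side of the start, where H3K27Ac was 5.4 and 7.19. H3K4Me1 was highest upstream, at 14.0 between 8000 and 8500 bp before the start.

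Of 38 B cell genes, 32 starts (84.2%) were enriched in H3K27Ac, 25 (65.8%) in H3K4Me1 and 3 (7.89%) in H3K27Me3, against 46.6%, 40.6% and 15.6% of all starts. The median levels were 11, 3.04 and 0.427. The list of 14 genes that every cell uses, such as Actb (47.6), the actin gene, had all 14 starts enriched in H3K27Ac at a median of 20, with none in H3K27Me3. The median of the B cell list in H3K27Ac was thus between that of the macrophage list and that of the genes in general use.

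Pou2af1, a co-activator of octamer-binding factors in B cells, was among the starts of the list with the most H3K27Ac, with 616 H3K27Ac tags (level 30.8), 34 H3K4Me1 and 2 H3K27Me3 tags. Cd79b (28.7), a signalling chain of the B cell receptor, Cd37 (28.5), a tetraspanin, Vpreb1 (27) and Igll1 (25.1), the surrogate light chain of the pre-B cell receptor, Tcf3 (26.3), the E2A transcription factor gene, and Il7r (25), the receptor for interleukin 7, were also among them. Each of these had an H3K27Me3 level below 1. Other transcription factor genes of the B lineage stood at different levels beside Tcf3: Ikzf1, which encodes Ikaros, had an H3K27Ac level of 24. Ebf1 had 370 H3K27Ac tags (level 18.5, 16.6 to 20.5) and Pax5 had 295 (level 14.7, 13.1 to 16.5), and the H3K4Me1 levels of Ebf1 and Pax5, 1.5 and 0.901, were under the limit. Cd79a, the other signalling chain, had 16.6 in H3K27Ac, 4.13 in H3K4Me1 and 0.321 in H3K27Me3. These levels overlap those of the macrophage markers, where Mmp12 stood at 20.1 and Csf1r at 13.4.

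The low end of the B cell list split in 2. Ly6d, Erg, Mme and Blk, which encode a surface antigen, an Ets factor, a membrane peptidase and a kinase, had H3K27Ac levels from 0.15 to 0.3, and Ms4a1, which encodes CD20, had 0.699. Ms4a1 and Blk were enriched in H3K27Me3 (2.56 and 2.14), Ly6d and Erg were just below the limit (1.71 and 1.87), and Mme was low in all 3 marks (0.0751 in H3K4Me1, 0.25 in H3K27Ac and 0.427 in H3K27Me3). Rag1, which encodes a part of the V(D)J recombinase, was the remaining start with H3K27Me3, with 39 tags against a limit of 38 (level 2.08), and had 133 H3K4Me1 tags (level 9.99) beside 34 H3K27Ac tags (level 1.7). All 3 H3K27Me3 calls of the list were lost at a minimum of 4-fold and against the mean of the surrounding 60 kb, and 2 were left when the libraries were thinned to the smallest, while its H3K27Ac count did not move by more than 1.5 times under any alternative.

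Marks at B cell genes were not limited to their starts. Counting the gene and 20 kb on each side, 34 of the 38 loci had an H3K27Ac window more than 2500 bp from the start of the gene. So did 37 of the 42 macrophage loci and all 14 loci of genes used by every cell. Among other lists it was 16 of 20 T cell, 13 of 19 erythroid and stem cell and 13 of 18 granulocyte loci. Of 34 loci of developmental regulators outside blood, 9 had such a window. The share over all protein-coding loci was not counted. Of 1253 windows at the B cell loci, 481 (38.4%) were enriched in H3K27Ac, 625 (49.9%) in H3K4Me1 and 97 (7.74%) in H3K27Me3. The shares over all windows were 8.61%, 12.4% and 12.8%. For the 14 loci of genes used by every cell they were 45.5%, 51.5% and 7.89%, close to those of the B cell loci, and for the 42 macrophage loci 40.7%, 49.9% and 28.4%. Of 145 windows at Ebf1, 93 had H3K4Me1, 70 had H3K27Ac and 0 had H3K27Me3. At Pax5, 24 of 74 windows had H3K27Ac, and the highest away from the start, chr4:44718001-44721000, reached a level of 26.9, above that of the start itself. Ikzf1, which encodes the lymphoid factor Ikaros, had H3K27Ac in 40 of 43 windows, and Mme, Ly6d, Blk and Ms4a1 in 0 of 43, 15, 30 and 19. Erg was low at its annotated start but had 28 of 89 windows with H3K27Ac, up to a level of 31.6, and 34 with H3K27Me3. These loci can hold regulatory DNA of neighbouring genes, which was not separated here. In every list, windows shared by overlapping loci, such as those of Rag1 and Rag2, were counted for each locus.

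**Figure D4:**
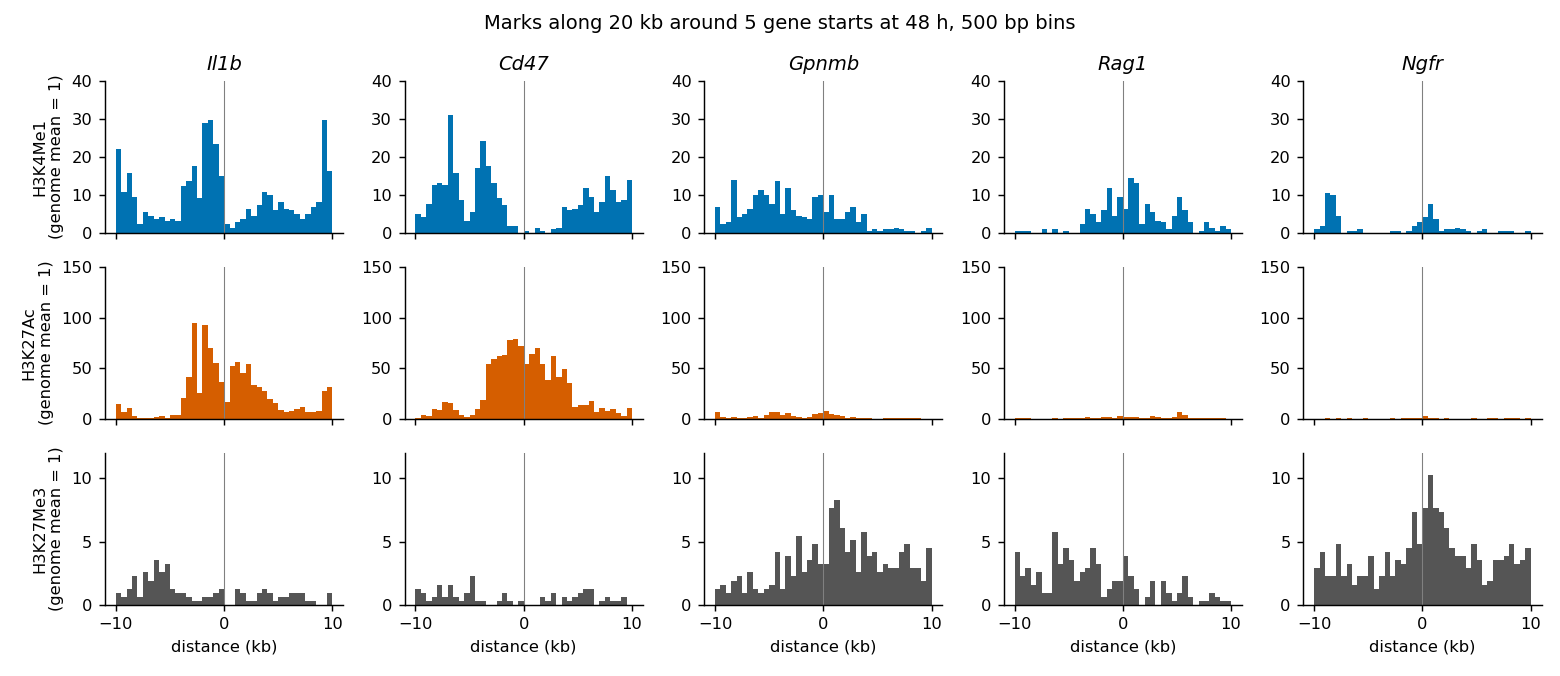
Level of each mark (genome mean = 1) in 500 bp bins over 10 kb on each side of 5 gene starts, drawn in the direction of transcription, with a row for each mark and the same vertical scale along a row. Il1b has H3K27Ac up to 94.7, and its H3K27Me3 reaches 3.53 between 6000 and 6500 bp upstream. Cd47 has H3K27Ac up to 79.1 with little H3K27Me3. Gpnmb has all 3 marks, Rag1 has H3K4Me1 around the start, and Ngfr has H3K27Me3 up to 10.3.

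Lists of other lineages had a smaller share of starts with H3K27Ac than the 46.6% of all starts and a larger share with H3K27Me3 than the 15.6% of all. The larger H3K27Me3 share was not particular to them, as the list of 42 macrophage genes had 26.2%. Of 20 T cell genes, 6 (30%) were enriched in H3K27Ac and 6 in H3K27Me3, with no start in both. As 2.81% of all starts had both, a lack of such starts among 20 does not set the list apart. H3K27Ac stood at Gata3 (25.2), a transcription factor gene, Cd5 (22.7) and Cd2 (14.8), surface antigens, and H3K27Me3 stood, among others, at Cd3d (4.97) and Cd3g (4.38), chains of the T cell receptor complex. Of 18 granulocyte genes, 6 (33.3%) were enriched in H3K27Ac and 10 (55.6%) in H3K27Me3. The 2 leading in H3K27Ac, Mmp8 (65.6), the neutrophil collagenase, and Camp (54.0), an antimicrobial peptide gene, were above Il1b (47.6) in level, whereas Lcn2 (4.06), Csf3r (3.79) and S100a9 (3.53), which encode a siderophore-binding protein, the receptor for G-CSF and a calcium-binding protein, led in H3K27Me3. Elane (13.1) and Camp (14.5) had high H3K4Me1, and Mpo, which encodes myeloperoxidase, had H3K27Me3 (3.21) with neither of the others above its limit. Of 19 erythroid and stem cell genes, 5 (26.3%) had H3K27Ac and 5 H3K27Me3, and Tal1 and Klf1, transcription factor genes, had all 3 marks, Tal1 at levels of 2.1 in H3K4Me1, 13.7 in H3K27Ac and 3.53 in H3K27Me3.

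**Figure D5:**
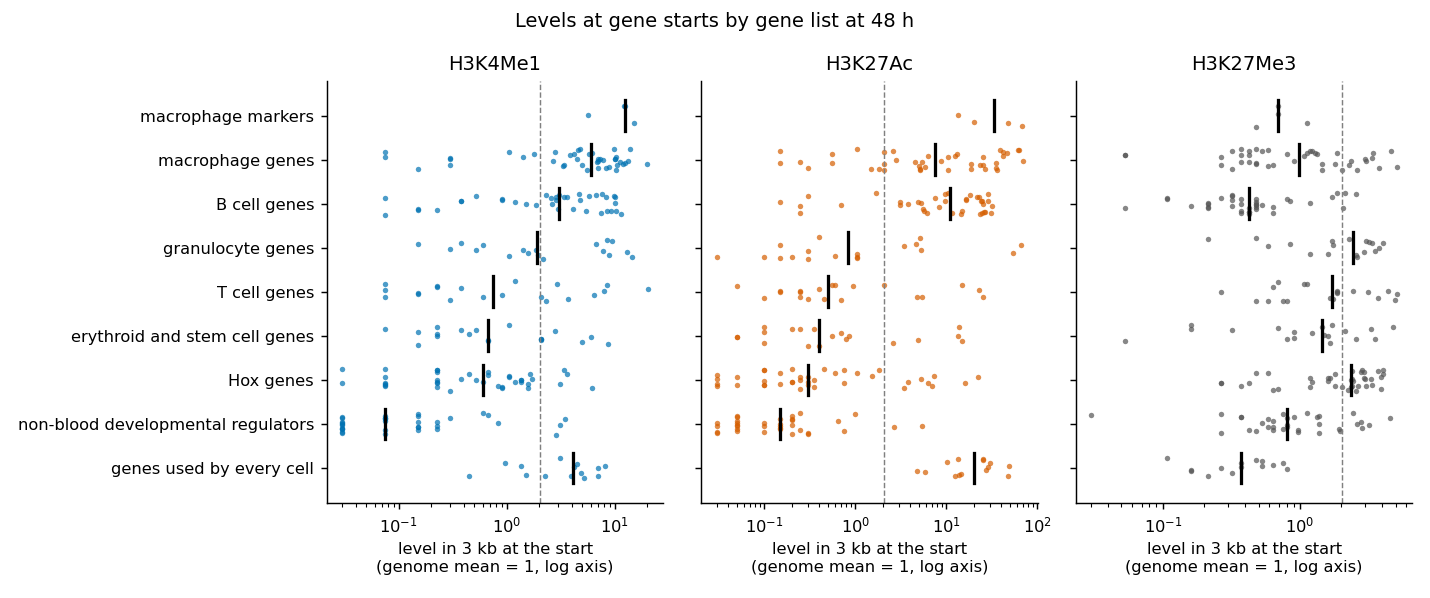
Level of each mark in the 3 kb at the start (genome mean = 1, log axis) for every gene of 9 lists, a point per gene, with the list's median as a black bar and the limit of enrichment as a dashed line; starts without a tag are drawn at the left edge. The median in H3K27Ac is 33.8 for the 4 macrophage markers but 7.57 for the 42 further macrophage genes. It is 11 for the B cell genes and 0.15 for the developmental regulators.

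Hox genes, which set position along the body axis, were the list with the largest share in H3K27Me3 among those counted, 23 of 39 starts (59%), at levels up to 4.06 at Hoxa10 and Hoxc8. H3K27Ac was enriched at 8 of the 39 (20.5%, against 46.6% of all starts), highest at Hoxb6 and Hoxb7 (22.4 and 16.2), where H3K27Me3 stood at 0.374 and 0.267. Hoxc6, Hoxa6 and Hoxa7 had both marks of lysine 27 without H3K4Me1. Of 34 other developmental regulators outside blood, only 6 (17.6%) were enriched in H3K27Me3, close to the 15.6% of all starts, and 27 had no mark at all, which was the state of 38.7% of all starts. Neurog2 (4.54), Neurog1 (3.21) and Nkx2-5 (2.83), transcription factor genes of neurons and heart, were highest, and Irx3 had 0 H3K27Me3 and 0 H3K4Me1 tags with 4 H3K27Ac tags. By its exact Poisson interval, a count of 0 allows a level of up to 0.197 at Irx3 in H3K27Me3 and 0.277 in H3K4Me1. Away from their starts 23 of these 34 loci had an H3K27Me3 window, beside 35 of the 42 macrophage loci and 20 of the 38 B cell loci. Of all 718 windows at the developmental regulators, those at the starts included, 172 (24%) were enriched, against 12.8% of all windows. Macrophage (28.4%), T cell (29%), granulocyte (43.3%) and erythroid loci (24.5%) had as large a share or a larger one. Of 1087 olfactory receptor genes, 102 (9.38%) had H3K27Me3, 9 (0.828%) had H3K27Ac and 970 had no mark, against 15.6%, 46.6% and 38.7% of all starts.

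Mean levels differed between chromosomes, and for chromosomes other than X and 11 not always in the same direction in the 3 libraries, as on chromosome 17 (1.18 in H3K4Me1, 1.22 in H3K27Ac and 0.967 in H3K27Me3). Chromosome 11 had the highest mean level, 1.59 in H3K4Me1 and 1.62 in H3K27Ac, with 1.24 in H3K27Me3, where chromosome 19 was higher at 1.28. Chromosome X had the lowest, with 0.307, 0.353 and 0.447 in H3K4Me1, H3K27Ac and H3K27Me3, and 1.36% of its windows were enriched in H3K27Me3 against 12.8% of all windows. Btk, a kinase gene of B cells on X, nevertheless had an H3K27Ac level of 21.7. Copy number and the part of each chromosome that tags can be placed on were not tested, and levels of genes on X are given over the same genome mean as all others.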

How the data were processed

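ChIP-seq tags of 3 libraries of C10 cells at 48 hpi were used, 1 each for H3K4Me1, H3K27Ac and H3K27Me3. Per the study's methods, the authors aligned Illumina reads to mm9 with Eland or Bowtie without mismatch and discarded tags that were not unique or were identical. Bowtie and mm9 are also named in the submitters' processing notes, and the aligner of each file is not given in the sources used here. As deposited, the files hold positions of tags of 36 bp without a strand, 11041458 in the H3K4Me1 file, 16991584 in that of H3K27Ac and 15358857 in that of H3K27Me3. They did not follow the same rule on identical tags: H3K4Me1 held 6760 positions with more than 2 tags, H3K27Ac at most 2 and H3K27Me3 1 per position. Keeping 1 tag per position removed 1.1%, 3.37% and 0% of the tags. H3K4Me1 and H3K27Ac shared 607068 positions (5.56% and 3.7% of them), and the other pairs under 1%. A tag was placed 18 bp from its left end.

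NCBIM37 (mm9) with GENCODE vM1 was the reference, and 0 tags fell in unknown bases. Each library was scaled by its own mean over windows with a tag in any library. Gene starts are the annotated 5′ ends, and 3476 of them lie within 3000 bp of another, so that such genes share tags. Genes were named by rank in each mark (the first 10, leaving out starts within 3000 bp of a higher one), by every macrophage marker, and by the ends of each list; the members, lists and B lineage genes were chosen with earlier results of these data known. Genes such as Sfpi1 were matched through older symbols in RefSeq, and Sox1 and Gfi1 were not analysed here. Intervals are exact Poisson for tags and exact binomial for shares, at 95%, and cover counting error only. The promoters printed were read from the mm9 reference. Python 3.11.15, numpy 2.4.6, pandas 2.3.3 and scipy 1.17.1 were used, with matplotlib 3.10.9 for the figures. Alternatives were no fold minimum or one of 4, the mean of the surrounding 60 kb as background, other window and start sizes, tags thinned to the smallest library or as deposited, and other choices of starts. The other 12 libraries of the series, input and expression data were not used here. Some genes that the naming rule would give are not reported here.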

Additional observations from a re-analysis of the deposited data

Results flagged for a closer look

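Tags also fell outside the chromosomes analysed, in data that no comparison above uses. On chromosome Y there were 622 distinct positions in H3K4Me1, 2252 in H3K27Ac and 1864 in H3K27Me3. Mitochondrial DNA had 47 in H3K4Me1 and 239 in H3K27Me3, with 0 in H3K27Ac. Unplaced contigs had 5915, 12358 and 18474 in H3K4Me1, H3K27Ac and H3K27Me3. What these tags come from was not tested.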

How the results depend on the processing

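Of 159 values under alternatives, 123 stayed within 1.5 times and 36 moved by more; the cause was not tested. Of all windows, a minimum of 4-fold left 6.99% with H3K4Me1, 5.05% with H3K27Ac, 1.32% with H3K27Me3, 3.89% with H3K4Me1 and H3K27Ac, 0.103% with H3K4Me1 and H3K27Me3 and 0.0171% with both marks of lysine 27. Against the surrounding 60 kb these were 4.93%, 3.67%, 1.32%, 2.22%, 0.065% and 0.0212%. Windows of 1000 bp gave 7.86% for H3K27Me3, 0.676% with H3K4Me1 and H3K27Me3 and 0.185% with both marks of lysine 27. Of starts, 4-fold left 18.5% with H3K4Me1, 2.05% with H3K27Me3, 15.5% with H3K4Me1 and H3K27Ac, 0.331% with H3K4Me1 and H3K27Me3 and 0.085% with H3K27Ac and H3K27Me3. The surrounding 60 kb gave 15.9%, 2.72%, 13.3%, 0.403% and 0.282% for the same, and 1000 bp at the start gave 11.7%, 9.56%, 8.79%, 1.68% and 1.11%. Taking any annotated transcript start gave 7.62% with H3K4Me1 and H3K27Me3 and 4.98% with H3K27Ac and H3K27Me3. Of the 38 B cell genes, 4-fold left 16 with H3K4Me1 and 0 with H3K27Me3, and the surrounding 60 kb left 11 and 0, while H3K27Ac stayed between 24 and 33. Leaving out sites at 4-fold or more in all 3 libraries, chosen after seeing the data, moved none of its 15 values by more than 1.5 times. No paired analysis was possible because the 48 hpi data hold 1 library for each mark, and for the same reason no replicate could be left out. Thinning every library to the smallest moved none of its 15 values by more than 1.5 times; of the B cell starts it left 2 with H3K27Me3 in place of 3 and 33 with H3K27Ac in place of 32.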
